A study of Homo sapiens with 7 samples.

Results

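The comparison set the late transcriptome of opto-PKR H4 cells, after 600 and 720 min of continuous blue light, against the same cells with no illumination (0 min). Of the 7 libraries of the series, 3 were compared: 1 at 600 min, 1 at 720 min and 1 at 0 min. H4 is an established human neuroglioma line. Opto-PKR is a Cry2Olig-PKR fusion: Cry2Olig is a plant photoreceptor variant that clusters under blue light, and PKR (gene EIF2AK2) is a kinase of the translation factor eIF2. All 3 cultures carried the fusion and grew on fibronectin-coated glass in a 96-well plate, and the light was set to 7.5 mcd. RNA was counted at transcript 3′ ends with unique molecular identifiers (UMIs), by CEL-Seq2, a single-cell method adapted so that each illumination time took the place of a cell. The libraries held 8877186 transcripts at 600 min and 7918172 at 720 min, against 8501845 at 0 min. Each time is 1 library, so the values have no replicate check and no test was possible. Cells kept dark for as long were not analysed here, nor were lit cells without the fusion, so the effect of light and that of the hours in culture cannot be told apart.

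When PKR phosphorylates eIF2, general translation initiation slows while the transcription factor ATF4 is translated better. ATF4 and its partner CHOP then raise genes for amino acid supply, for tRNA charging and for shutting the signal off, a programme called the integrated stress response (ISR). The question here was which genes stood apart from the unlit cells by a like amount at both late times.

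Genes with at least 20 transcripts in any of the 3 libraries were compared, which left 12985 of the 18690 listed. Levels are in CPM, counts scaled to 1e+06 per effective library. A gene was called settled when it was at least 2-fold higher, or at least 2-fold lower, than at 0 min in both late libraries, with the log2 ratios at 600 and 720 min within 0.5 of each other. Intervals are exact binomial 95% intervals and cover counting error only. Both ratios rest on the same unlit library, so an error in that library moves both.

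Of the genes compared, 448 were settled higher, 3.45% of all, and 318 were settled lower, 2.45% of all. At 600 min alone 858 genes (6.61%) stood at least 2-fold higher and 667 (5.14%) lower. At 720 min alone the counts were 730 (5.62%) higher and 660 (5.08%) lower. Both intervals lay clear of a ratio of 1 for 443 of the 448 higher genes and for all 318 lower genes. The intervals use the same counts as the rule for settled genes, so this is no separate support. The interval of the 720 min to 600 min ratio included 1 for 290 of the higher and 282 of the lower genes, so the late libraries themselves differed beyond counting error for the rest. Of all genes compared, 39.7% were above the unlit level at both late times and 39.9% were below it, to whatever extent. The settled higher genes together made up 4.21% of the transcripts compared at 600 min and 4.16% at 720 min, against 1.45% at 0 min. The settled lower genes made up 0.468% at 600 min and 0.454% at 720 min, against 1.31% at 0 min. Their mean log2 ratio had a median of 1.49 for the higher genes (1.00 to 6.34) and of -1.38 for the lower genes (-4.27 to -1.02), where the median of all genes was 0.00 at both times. For 110 of the higher and 57 of the lower genes the UMI counts were not whole numbers, as when reads are divided between genes of like sequence, so their values are uncertain. Between the late libraries themselves, 228 genes (1.76%) differed by at least 2-fold. Set against the 60 min library in place of the unlit one, 372 genes were settled higher and 294 lower. Of the 448 and 318 genes, 253 (56.5%) and 150 (47.2%) were among these.

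**Figure D1:**
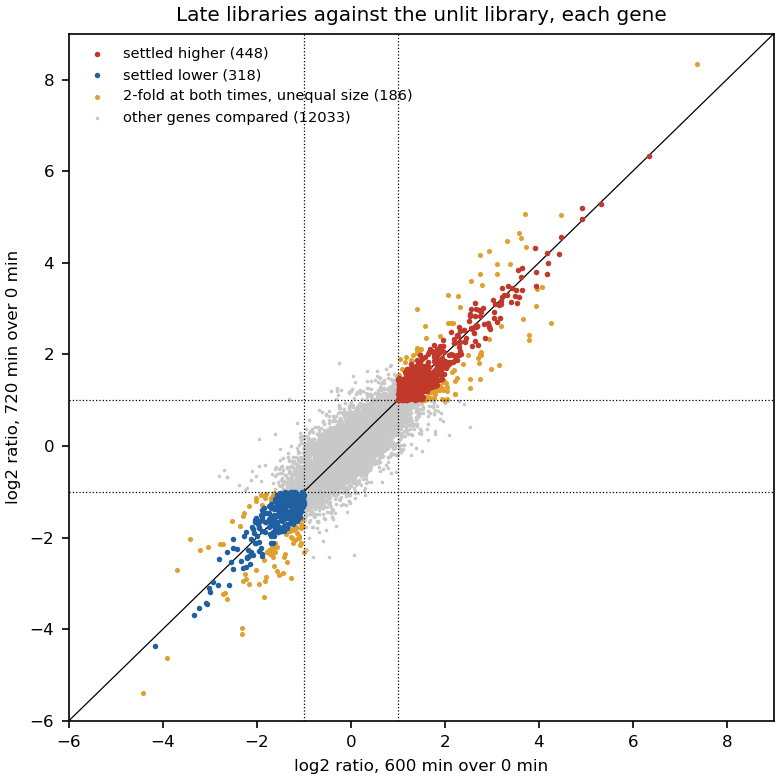
Log2 ratio to 0 min of each of the 12985 genes at 600 min (horizontal) and 720 min (vertical), 1 library per time. Red and blue points are the 448 genes settled higher and the 318 settled lower, orange points were past 2-fold at both times but with ratios more than 0.5 apart, and dotted lines mark 2-fold.

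Markers of the line and of other cell types were checked first. The 15 genes of the glial list had 1511 CPM in sum at 600 min and 1339 CPM at 720 min, against 1660 CPM at 0 min, with VIM and CD44 holding most of it and GFAP, S100B, FABP7 and CHI3L1 at 0 in all 3 libraries. The 12 blood cell markers had 71.9 CPM in sum at 600 min and 59.8 CPM at 720 min, against 72.1 CPM at 0 min. Most of it was LCP1, an actin-bundling protein also made by many tumour lines (65.6 and 56.8 CPM late, against 67.9 CPM at 0 min), while 5 of the 12, with CD3E, SPI1 and HBB among them, were at 0 throughout. ITGAM had 48 transcripts at 600 min and 14 at 720 min, against 12 at 0 min. The epithelial list summed to 258 and 265 CPM late, against 145 CPM at 0 min, with its defining genes EPCAM and CDH1 at no more than 2 counts and GRHL2 at 0. In bulk RNA, fewer cells of a type and less RNA per cell cannot be told apart.

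Among the 10 transcription factors of the ISR list, 4 were settled higher (40%, where 3.45% of all genes were). Settled lower was 1 (10%, where 2.45% of all genes were), and 9 were above the unlit level at both late times. Of all genes, 39.7% were above it at both times. DDIT3, which encodes CHOP, stood at 95.9 CPM at 600 min and 94.5 CPM at 720 min, against 15.3 CPM at 0 min, with log2 ratios of 2.63 (2.38 to 2.93) and 2.61 (2.35 to 2.91). Both late libraries thus stood more than 4-fold above the unlit one. NUPR1, a small stress-induced chromatin protein, stood at 393 CPM at 600 min and 482 CPM at 720 min, against 79.7 CPM at 0 min. CEBPG, a bZIP partner of ATF4, had log2 ratios of 1.56 and 1.37, and ATF5, a factor translated under eIF2 phosphorylation like ATF4, had log2 ratios of 1.006 and 1.45. ATF5 had been below its unlit level at 120 and 240 min (83.8 and 86.9 CPM), and its UMI counts were not whole. With UMI counts, not corrected for collisions among UMIs, 3 of the 10 factors were settled higher. ATF5 was then not settled, at a mean log2 ratio of 0.94. ATF4 itself stayed just under the 2-fold line at both times, with log2 ratios of 0.84 (0.77 to 0.91) and 0.993 (0.92 to 1.06). CEBPB straddled it at 0.96 and 1.15. ATF3 was past it at both times but not by a like amount: 189 CPM at 600 min and 113 CPM at 720 min, against 27.3 CPM at 0 min. JDP2 and CREBRF, the remaining members, had log2 ratios of 0.44 and 0.78 (JDP2) and log2 ratios of 1.11 and 0.56 (CREBRF). CEBPD, a C/EBP factor of inflammatory and acute-phase responses, was the settled lower member: 15.7 CPM at 600 min and 15.7 CPM at 720 min, against 37.0 CPM at 0 min.

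Of 20 ISR effectors and feedback genes, 10 were settled higher (50%, where 3.45% of all genes were) and none lower. The median log2 ratio of the 20 was 1.05 at 600 min and 1.09 at 720 min. Genes that shut the signal off were among the settled ones. PPP1R15A, the stress-induced subunit that brings a phosphatase to eIF2, stood at 295 CPM at 600 min and 339 CPM at 720 min, against 51.0 CPM at 0 min. TRIB3, a pseudokinase that binds ATF4, stood at 412 CPM at 600 min and 387 CPM at 720 min, against 44.6 CPM at 0 min. PPP1R15B, the constitutive counterpart of PPP1R15A, had log2 ratios of 0.86 and 0.53 and was not settled. Genes that restrain growth signalling through mTORC1 were settled higher as well. SESN2, a stress-induced sestrin, had 169.8 CPM at 600 min and 155 CPM at 720 min, against 20.2 CPM at 0 min. DDIT4, also called REDD1, had 428 CPM at 600 min and 469 CPM at 720 min, against 111 CPM at 0 min. EIF4EBP1, the translation repressor that mTORC1 inactivates, had 141 CPM at 600 min and 192 CPM at 720 min, against 60.6 CPM at 0 min. EIF4EBP1 thus stood higher at 720 than at 600 min. STC2, a secreted glycoprotein, had log2 ratios of 2.58 (2.50 to 2.66) and 2.54 (2.46 to 2.63). CHAC1, which degrades glutathione, stood at 309 CPM at 600 min and 432 CPM at 720 min, against 49.4 CPM at 0 min, and VLDLR, a lipoprotein receptor, at 31.0 CPM at 600 min and 23.4 CPM at 720 min, against 3.77 CPM at 0 min. TNFRSF10B, the death receptor DR5 and a CHOP target, had log2 ratios of 1.51 and 1.29, while BBC3, a pro-death BCL2 relative, had log2 ratios of 0.89 and 0.90 and missed the line. TXNIP, an inhibitor of thioredoxin and of glucose uptake, had log2 ratios of 1.89 and 1.69 to the unlit cells, but not above the 60 min library (mean log2 ratio -0.19). Against that library 6 of the 20 were settled higher and TRIB1 lower, at a mean log2 ratio of -1.27. CHAC1 and PPP1R15A were then past 2-fold on average but not settled, at 1.06 and 1.06, and DDIT4 had 0.43.

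Of the other members CDKN1A, a CDK inhibitor, had log2 ratios of 0.46 and 0.58, TRIB1 0.026 and -0.12, KLHL24 -0.23 and -0.48 and DNAJC3, an inhibitor of eIF2 kinases, -0.36 and -0.24. None of the 4 eIF2 kinases was settled. EIF2AK2, whose counts may hold the transgene as well as the native gene, stood at 124 CPM at 600 min and 129.6 CPM at 720 min, against 188 CPM at 0 min, with log2 ratios of -0.60 (-0.72 to -0.49) and -0.54 (-0.65 to -0.42). EIF2AK1, the haem-regulated kinase, and EIF2AK4, the amino acid sensor GCN2, lay within 0.2 of the unlit level on the log2 scale at both times. EIF2AK3, the ER kinase PERK, had log2 ratios of -0.17 and -0.77 from at most 97 counts.

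Of 17 secreted stress hormones and growth factors compared, 10 were settled higher (58.8%, where 3.45% of all genes were) and none lower. The median log2 ratio of the 17 was 1.5001 at 600 min and 1.35 at 720 min. FGF21, a metabolic hormone best known from liver, had no transcript in the unlit cells: 62 transcripts at 600 min and 55 at 720 min, against 0 at 0 min. Against a floor of 3 counts in the unlit library it was 20.1-fold and 20.6-fold higher, with lower 95% limits from the counts of 15.9-fold and 16.2-fold. GDF15, a hormone that curbs appetite, stood at 891 CPM at 600 min and 1029 CPM at 720 min, against 329 CPM at 0 min. INHBE, an activin subunit, stood at 76.6 CPM at 600 min and 57.5 CPM at 720 min, against 4.00 CPM at 0 min, and FGF2, a mitogen, at 139.6 CPM at 600 min and 113 CPM at 720 min, against 18.0 CPM at 0 min. Each of these stood above the unlit level in both late libraries, as the rule for settled genes requires. VEGFA, the angiogenic growth factor, stood at 491 CPM at 600 min and 514 CPM at 720 min, against 155 CPM at 0 min, with a mean log2 ratio of 0.39 to the 60 min library. AREG, a ligand of the EGF receptor, had only 30 transcripts at 600 min and 20 at 720 min, against 2 at 0 min. BMP2, INHBA, NRG1 and VGF were the others.

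Enzymes of amino acid and one-carbon metabolism formed the next group: 11 of 22 were settled higher (50%, where 3.45% of all genes were) and none lower. Of the 22, 6 were below the unlit level at both times. The settled enzymes covered serine synthesis (PSAT1, PSPH), its mitochondrial one-carbon branch (SHMT2, MTHFD2, ALDH1L2), transsulfuration (CBS, CTH), proline synthesis (PYCR1), transamination (GOT1, GPT2) and asparagine synthesis (ASNS). ASNS, which makes asparagine from aspartate and glutamine, stood at 946 CPM at 600 min and 938 CPM at 720 min, against 248 CPM at 0 min. The late libraries were nearly equal to each other for ASNS. PSPH, the last step of serine synthesis, stood at 104 CPM at 600 min and 122 CPM at 720 min, against 26.6 CPM at 0 min. CTH, which releases cysteine from cystathionine, stood at 122 CPM at 600 min and 97.6 CPM at 720 min, against 10.0 CPM at 0 min. ALDH1L2, the mitochondrial formyl-folate dehydrogenase, stood at 46.1 CPM at 600 min and 43.7 CPM at 720 min, against 4.94 CPM at 0 min, and GPT2, mitochondrial alanine transaminase, at 287 CPM at 600 min and 232 CPM at 720 min, against 67.1 CPM at 0 min. For each enzyme named here both late levels lay above the unlit one by more than counting error, as the rule for settled genes makes likely. PSAT1 had log2 ratios of 1.47 and 1.44, and was the only settled gene above 3800 UMIs, where the correction for UMI collisions is steep. The correction also weighed on ASNS, with up to 3549 UMIs. Its mean log2 ratio was 1.14 with UMI counts, against 1.93 with transcripts. With UMI counts 8 of the 22 enzymes were settled higher. PSPH has close copies in the genome, and its UMI counts were not whole.

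ATF4 and C/EBP factors pair on a composite DNA element, read here as TGATGNAA on either strand. In the 250 bases before the start of each gene in RefSeq (GRCh38.p14, 10187 of the 12985 genes matched by symbol and chromosome), it was found in 151 promoters, 1.48% of all. It was found in 14 of 300 settled higher promoters (4.67%) and in 0 of 236 settled lower promoters. By list, 1 of 12 hormone promoters had it (1 of 6 settled), 2 of 16 effector promoters (1 of 8 settled) and 4 of 14 enzyme promoters (2 of 6 settled). So did 1 of 8 ISR factors, 1 of 15 amino acid transporters and 2 of 13 cytosolic tRNA synthetases, but 0 of their settled members. The following 4 stretches show it, in capitals, in settled higher genes of the hormone, effector and enzyme groups, each 5′ to 3′ on the strand of its gene. They lie at chr19:48755434-48755513 on the plus strand (FGF21), chr15:40953226-40953305 on the plus strand (CHAC1), chr7:97872433-97872512 on the minus strand (ASNS) and chr10:99430779-99430858 on the minus strand (GOT1, cytosolic aspartate transaminase).
FGF21: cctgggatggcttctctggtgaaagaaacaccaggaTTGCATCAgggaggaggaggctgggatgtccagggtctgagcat
CHAC1: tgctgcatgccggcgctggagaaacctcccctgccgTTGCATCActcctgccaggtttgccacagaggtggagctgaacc
ASNS: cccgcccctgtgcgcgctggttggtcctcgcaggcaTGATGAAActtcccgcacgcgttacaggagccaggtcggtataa
GOT1: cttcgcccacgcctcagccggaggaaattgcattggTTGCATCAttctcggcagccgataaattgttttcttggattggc
The first letter of the element as printed lay 54 bases before the gene start in FGF21, 209 in CHAC1, 68 in ASNS and 198 in GOT1. A match is a description of letters, and says nothing of binding in these cells.

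The carriers and charging enzymes that handle amino acids lay nearer the unlit level as groups. Settled higher were 21.1% of the transporters and 10% of the cytosolic tRNA synthetases, where 3.45% of all genes were. Of 19 amino acid transporters, 4 were settled higher: SLC6A9, a glycine carrier (249 and 245 CPM late, against 27.0 CPM at 0 min), SLC1A4, a neutral amino acid carrier (196 and 181 CPM late, against 65.5 CPM at 0 min), SLC38A1, which brings in glutamine (383 and 338 CPM late, against 162 CPM at 0 min), and SLC7A1, which brings in arginine and lysine (175 and 153 CPM late, against 74.3 CPM at 0 min). With UMI counts, which lack the correction for collisions, 2 of the 19 were settled higher, and with read counts 7. Of 20 cytosolic tRNA synthetases, 15 lay above the unlit level at both times, as did 39.7% of all genes, and 2 were settled: WARS (log2 ratios of 1.11 and 1.06) and SARS (log2 ratios of 1.03 and 1.20). With UMI counts none was settled, WARS having a mean log2 ratio of 0.73 and SARS of 0.83, and with read counts 5 were. None of 17 mitochondrial synthetases was settled, and their median lay at -0.22 at 600 min and -0.28 at 720 min.

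The endoplasmic reticulum (ER) lists split. Settled higher were 4.55% of the ER chaperone list and 9.52% of the ER degradation list, where 3.45% of all genes were. The autophagy list had 8.33% and the NRF2 list 9.52%. Each of these shares rests on 1 or 2 genes. Of 22 ER chaperones and folding enzymes, 1 was settled higher, DNAJB9, a BiP co-chaperone (104 CPM at 600 min and 105 CPM at 720 min, against 36.03 CPM at 0 min), and 15 were below the unlit level at both times. Of all genes, 39.9% were below it at both times. Of 21 ER-associated degradation and translocation genes, 2 were settled higher: XBP1, the transcription factor spliced by IRE1 (120.4 CPM at 600 min and 120.2 CPM at 720 min, against 44.0 CPM at 0 min), and HERPUD1, which helps to clear misfolded proteins (298 CPM at 600 min and 303 CPM at 720 min, against 123 CPM at 0 min). Among autophagy and lysosome genes 2 of 24 were settled higher, both of the ATG8 family that coats the autophagosome: GABARAPL1 (171 CPM at 600 min and 180.3 CPM at 720 min, against 65.6 CPM at 0 min) and MAP1LC3B (684 CPM at 600 min and 691 CPM at 720 min, against 258 CPM at 0 min). MAP1LC3B had UMI counts that were not whole. Of 21 NRF2 targets and iron genes, 2 were settled higher: SLC48A1, a haem transporter (log2 ratios of 1.09 and 1.17), and AKR1C1, an aldo-keto reductase with near-identical relatives (log2 ratios of 1.007 and 1.47).

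Most sugar and respiratory genes stood near the unlit level. Settled higher were 4.76% of the glycolysis list and 10% of the pentose phosphate list, 1 gene each, where 3.45% of all genes were. In glycolysis, 1 of 21 genes was settled higher: HK2, the inducible hexokinase (35.0 CPM at 600 min and 32.9 CPM at 720 min, against 9.54 CPM at 0 min). TKTL1, a transketolase relative, was settled higher among 10 pentose phosphate genes from 73 transcripts at 600 min and 65 at 720 min, against 2 at 0 min. No gene was settled among 38 complex I subunits, 15 mitochondrial chaperones and proteases, 31 proteasome subunits, 68 ribosomal proteins, 73 mitochondrial ribosomal proteins, 26 ribosome biogenesis factors, 31 translation factors, 14 genes of nonsense-mediated decay or 20 integrins and laminins. Even so, 22 proteasome subunits and 14 integrins and laminins were below the unlit level at both times, where 39.9% of all genes were.

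**Figure D2:**
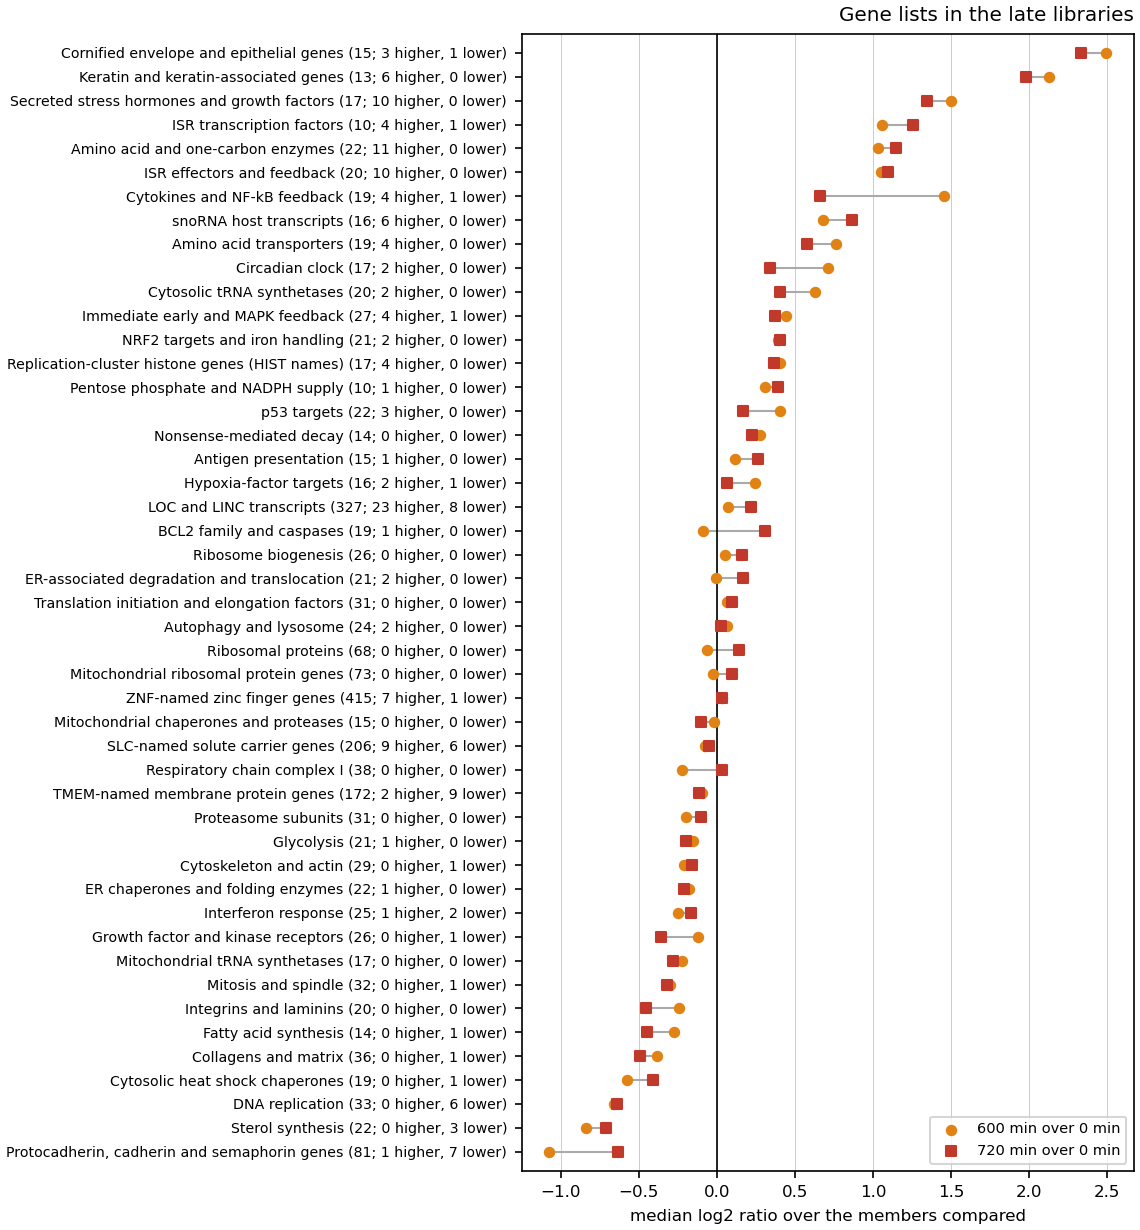
Median log2 ratio to 0 min over the compared members of each gene list with 10 or more of them, at 600 min (orange circles) and 720 min (red squares). Labels give the members compared and how many were settled higher or lower. Highest lie the cornified envelope and epithelial list (2.49 and 2.33) and the keratins (2.13 and 1.98). Only 15 of 33 and 13 of 61 members of these lists were compared. Some passed the count minimum only through the late libraries, which favours high medians. The lists of secreted factors, ISR factors and amino acid enzymes also lie above 1. Sterol synthesis, DNA replication and the cadherin families lie below -0.5.

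Inflammatory mediators were mixed. Settled higher were 21.1% of the cytokine list, 4% of the interferon list and 6.67% of the antigen presentation list, where 3.45% of all genes were. Settled lower were 5.26%, 8% and 0% of these lists, where 2.45% of all genes were. Of 19 cytokines and feedback genes of NF-kB, 4 were settled higher: the neutrophil chemokines CXCL2 (211 CPM at 600 min and 226 CPM at 720 min, against 9.30 CPM at 0 min), CXCL3 (43.2 CPM at 600 min and 45.6 CPM at 720 min, against 3.30 CPM at 0 min) and IL8 (343 CPM at 600 min and 293 CPM at 720 min, against 30.1 CPM at 0 min), and the cytokine IL6 (67.2 CPM at 600 min and 55.7 CPM at 720 min, against 6.12 CPM at 0 min). Against the 60 min library IL6 had a mean log2 ratio of 0.55. CXCL2 and CXCL3 resemble each other, and their UMI counts were not whole. CCL2, the monocyte chemokine, was settled lower: 27.8 CPM at 600 min and 22.9 CPM at 720 min, against 89.9 CPM at 0 min. Of 25 interferon response genes, IRF7 was settled higher from small counts (107 transcripts at 600 min and 72 at 720 min, against 38 at 0 min), and 2 were settled lower: IFIT1, which binds viral RNA (41.2 CPM at 600 min and 38.0 CPM at 720 min, against 116 CPM at 0 min), and OAS1, a sensor of double-stranded RNA (13.7 CPM at 600 min and 14.1 CPM at 720 min, against 30.4 CPM at 0 min). Of 15 antigen presentation genes 1 was settled higher, CD74, the invariant chain, with 53 transcripts at 600 min and 54 at 720 min, against 6 at 0 min.

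Of 27 immediate early genes and feedback regulators of MAP kinases, 4 were settled higher, each with at most 341 counts: KLF4 (log2 ratios of 1.88 and 1.67), DUSP8, a phosphatase of MAP kinases (log2 ratios of 1.63 and 1.23), SPRY2, a brake on receptor signalling (log2 ratios of 1.44 and 1.12), and MYC (log2 ratios of 1.29 and 1.16). Against the 60 min library DUSP8, SPRY2 and MYC lay on the other side of 0, with mean log2 ratios of -0.39, -0.48 and -0.87, and of the 27 genes none was settled higher and 13 were settled lower. FOS was settled lower, from 14 transcripts at 600 min and 10 at 720 min, against 37 at 0 min. Of the 27, 14.8% were thus settled higher and 3.70% lower, where 3.45% and 2.45% of all genes were. In the next lists 13.6% of p53 targets, 5.26% of BCL2 family and caspase genes and 11.8% of clock genes were settled higher. Among 22 p53 targets 3 were settled higher: GADD45A, a growth arrest gene (1044 CPM at 600 min and 984 CPM at 720 min, against 277 CPM at 0 min), and SESN2 and TNFRSF10B, described above. Of 19 BCL2 family and caspase genes 1 was settled higher: PMAIP1, the pro-death protein NOXA, stood at 116 CPM at 600 min and 102 CPM at 720 min, against 40.7 CPM at 0 min. Against the 60 min library GADD45A and PMAIP1 were not settled, at mean log2 ratios of 0.66 and 0.21. Of 17 clock genes NFIL3, a repressor bZIP factor (log2 ratios of 1.47 and 1.26), and PER2 (log2 ratios of 1.14 and 1.17) were settled higher. Neither was against the 60 min library, at mean log2 ratios of 0.27 and 0.28, where 1 other clock gene was settled lower.

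Of 61 keratin and keratin-associated genes 13 had enough transcripts to be compared, some of them through the late libraries, and 6 were settled higher. The mean log2 ratios of the 13 ran between 0.15 and 3.70. KRT17, a keratin of stressed and basal epithelium, stood at 115 CPM at 600 min and 129 CPM at 720 min, against 13.9 CPM at 0 min, and KRT81, a hair keratin, at 73.9 CPM at 600 min and 94.7 CPM at 720 min, against 16.7 CPM at 0 min. KRT16 had 68 transcripts at 600 min and 66 at 720 min, against 8 at 0 min, KRT34 had 27 transcripts at 600 min and 24 at 720 min, against 1 at 0 min, and KRT7, of simple epithelium, had 178 transcripts at 600 min and 169 at 720 min, against 36 at 0 min. The UMI counts of KRT16, KRT17 and KRT81 were not whole. Of 33 cornified envelope and epithelial genes 15 had enough transcripts to be compared, some of them through the late libraries. Of the 15, 3 were settled higher and 1 lower. A further 7 were at least 2-fold higher at both times by unequal amounts, and 1 lower. The median log2 ratio was 2.49 at 600 min and 2.33 at 720 min, and mean log2 ratios ran between -1.40 and 7.84. Beside KRT7 and KRT17 the settled higher one was ESRP1, an epithelial splicing factor, at 58.2 CPM at 600 min and 57.2 CPM at 720 min, against 0.471 CPM at 0 min. CNFN, a cornified envelope protein, was settled lower (29 transcripts at 600 min and 21 at 720 min, against 65 at 0 min), but was above the 60 min library, at a mean log2 ratio of 0.25. As given above, EPCAM, CDH1 and GRHL2 were at or near 0, and KRT18, the most abundant epithelial marker, had 174 CPM at 600 min and 183 CPM at 720 min, against 124 CPM at 0 min. CLDN4, a claudin of tight junctions in the same marker list, was settled lower, with 10 transcripts at 600 min and 11 at 720 min, against 34 at 0 min. The part of other cells in these values was not tested.

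Other settled higher genes lay outside these lists or were single members of one. TAC1, the precursor of substance P, stood at 217 CPM at 600 min and 256 CPM at 720 min, against 17.2 CPM at 0 min, with log2 ratios of 3.64 (3.42 to 3.91) and 3.88 (3.65 to 4.15). RAB39B, a small GTPase of vesicle traffic on chromosome X, stood at 139 CPM at 600 min and 119 CPM at 720 min, against 6.24 CPM at 0 min, with log2 ratios of 4.42 (4.08 to 4.90) and 4.20 (3.85 to 4.68). MAP2, a microtubule protein of dendrites, stood at 51.0 CPM at 600 min and 65.0 CPM at 720 min, against 8.59 CPM at 0 min, and OLIG2, an oligodendrocyte lineage factor, at 20.5 CPM at 600 min and 18.1 CPM at 720 min, against 5.06 CPM at 0 min. GABRG1, a GABA receptor subunit, had 299 transcripts at 600 min and 226 at 720 min, against 14 at 0 min. DRD5, a dopamine receptor, had 156 transcripts at 600 min and 163 at 720 min, against 3 at 0 min. The late levels of each lay far above the unlit one. OLIG2 was the 1 settled higher of the 8 glial markers compared. Among these 8, 4 lay above the unlit level at both late times and 4 below it. PDGFRA was lower by unequal amounts, with 182 transcripts at 600 min and 98 at 720 min, against 563 at 0 min. SOX2 had 139 transcripts at 600 min and 207 at 720 min, against 306 at 0 min. Of the 5 neuron markers compared MAP2 was the 1 settled higher. TUBB3 stood at 198 CPM at 600 min and 242 CPM at 720 min, against 326 CPM at 0 min. SYT1, a synaptic vesicle protein, stood at 89.6 CPM at 600 min and 83.9 CPM at 720 min, against 45.6 CPM at 0 min, and GAD1 at 11.7 and 7.66 CPM late, against 6.83 CPM at 0 min. SNAP25, of the release machinery, was lower by unequal amounts, with 13 and 3 transcripts late, against 51 at 0 min. The 12 neuron markers had 355 CPM in sum at 600 min and 403 CPM at 720 min, against 395 CPM at 0 min, and NEFM was at 0 in all 3 libraries. DHRS2, a short-chain dehydrogenase, stood at 48.6 CPM at 600 min and 44.3 CPM at 720 min, against 2.94 CPM at 0 min, and KLHDC7B, a Kelch protein, had 123 transcripts at 600 min and 104 at 720 min, against 1 at 0 min.

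Host transcripts of small nucleolar RNAs are mostly spliced RNAs without a conserved protein, many of them targets of nonsense-mediated decay. They were settled higher in 6 of 16 (37.5%, where 3.45% of all genes were) and lower in none. GAS5, which also binds the glucocorticoid receptor, stood at 270.1 CPM at 600 min and 321 CPM at 720 min, against 79.0 CPM at 0 min. SNHG8 stood at 413 CPM at 600 min and 380.3 CPM at 720 min, against 163 CPM at 0 min, and SNHG12 at 209 CPM at 600 min and 170.1 CPM at 720 min, against 56.5 CPM at 0 min. SNHG15 stood at 782 and 776 CPM late, against 354 CPM at 0 min, and EPB41L4A-AS1 at 219 and 168 CPM late, against 67.2 CPM at 0 min. TAF1D was the sixth. ZNFX1-AS1, a further noncoding host transcript, was the settled higher gene with the largest gain in transcripts: 1048 CPM at 600 min and 1158 CPM at 720 min, against 285 CPM at 0 min. With UMI counts 3 of the 16 were settled higher, SNHG8 having a mean log2 ratio of 0.993 and SNHG15 of 0.66. The sources used here do not say whether counting kept strands apart, so reads of an antisense transcript and of its partner gene cannot be told apart. Against the 60 min library 1 of the 16 was settled higher, GAS5, and SNHG12 lay below it, at a mean log2 ratio of -0.25.

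Because each transcript is counted at its 3′ end, differences in CPM can be set side by side without a length correction. Most of the 12 settled higher genes with the largest gain are described above. Of the others TCEA1, a transcription elongation factor, stood at 997 CPM at 600 min and 1022 CPM at 720 min, against 433 CPM at 0 min. ANKRD11, a chromatin regulator, stood at 608 CPM at 600 min and 683 CPM at 720 min, against 272 CPM at 0 min. PKD1P1, a pseudogene with close copies and UMI counts that were not whole, stood at 584 CPM at 600 min and 713 CPM at 720 min, against 172 CPM at 0 min. In each of the 12 the late libraries lay closer to each other than to the unlit one, as the rule for settled genes requires. The size of their ratios depended on the correction for UMI collisions, which is greatest in abundant genes. With UMI counts 4 of the 12 were settled, and the mean log2 ratios of all 12 ran between 0.61 and 1.64. ZNFX1-AS1 had 1.06 with UMI counts, against 1.95 with transcripts, GDF15 0.85 against 1.54, and PSAT1 0.65 against 1.45. TCEA1 (0.61), AKR1C1 (0.67), SNHG15 (0.66), ANKRD11 (0.81) and MAP1LC3B (0.91) were then under 2-fold.

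**Figure D3:**
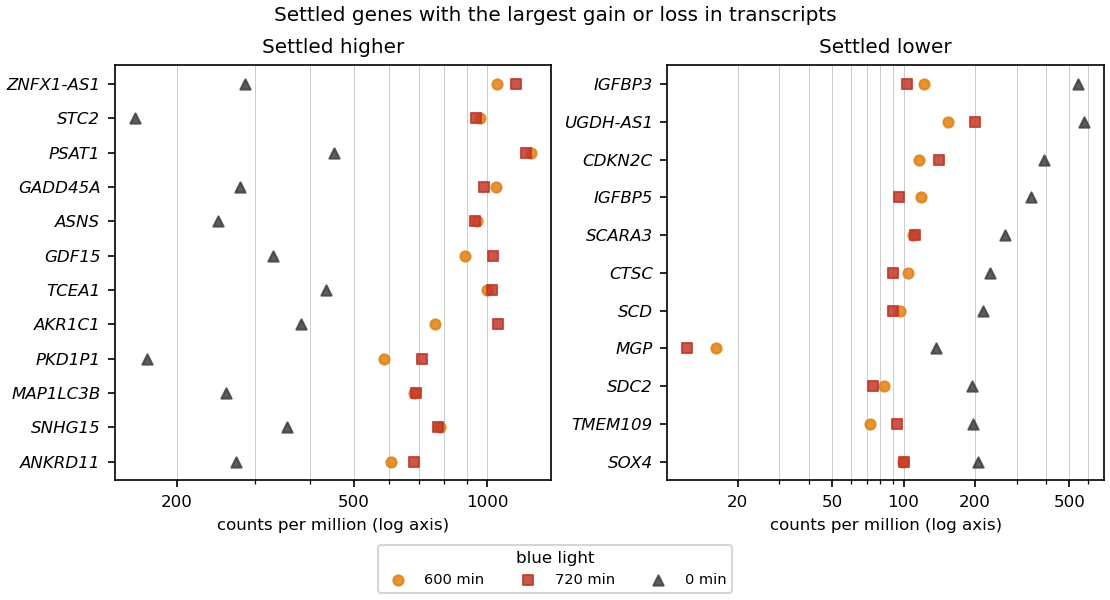
CPM on a log axis for the 12 settled higher genes (left) and 11 settled lower genes (right) with the largest differences in CPM, at 600 min (circles), 720 min (squares) and 0 min (triangles), 1 library each. STC2 stood at 963 and 941 CPM late, against 161 CPM at 0 min, and IGFBP3 at 122 and 103 CPM late, against 544 CPM at 0 min.

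Among the settled lower genes TMEM100 and MGP were far below the unlit level at both late times. TMEM100, a membrane protein of the BMP pathway on chromosome 17, stood at 1.26 CPM at 600 min and 1.06 CPM at 720 min, against 26.7 CPM at 0 min, with log2 ratios of -4.16 (-5.43 to -3.54) and -4.38 (-5.89 to -3.66). MGP, a matrix protein that blocks calcification, stood at 16.3 CPM at 600 min and 12.3 CPM at 720 min, against 137 CPM at 0 min, with log2 ratios of -3.05 (-3.33 to -2.82) and -3.45 (-3.80 to -3.17). STC1, the sister of STC2, stood at 2.41 CPM at 600 min and 2.25 CPM at 720 min, against 21.1 CPM at 0 min, while STC2 was settled higher. PTGER2, a prostaglandin E2 receptor, stood at 2.75 CPM at 600 min and 2.38 CPM at 720 min, against 23.5 CPM at 0 min, and CRISPLD1, a secreted cysteine-rich protein, at 13.3 CPM at 600 min and 9.78 CPM at 720 min, against 81.7 CPM at 0 min. CBLN2, a synapse organizer, had 9 transcripts at 600 min and 6 at 720 min, against 100 at 0 min, and LRRC17, GPRC5B and SPON2 had at most 7 transcripts late, against 53 to 68 at 0 min.

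Losses in transcripts were led by IGFBP3, which binds insulin-like growth factors: 122 CPM at 600 min and 103 CPM at 720 min, against 544 CPM at 0 min. The late levels were close to each other. Its relative IGFBP5 stood at 118 CPM at 600 min and 95.9 CPM at 720 min, against 343 CPM at 0 min. CDKN2C, the CDK inhibitor p18, stood at 116 CPM at 600 min and 141 CPM at 720 min, against 391.9 CPM at 0 min. SCARA3, a scavenger receptor, CTSC, the protease cathepsin C, SDC2, a heparan sulfate proteoglycan, and SOX4, a developmental transcription factor, had mean log2 ratios between -1.31 and -1.03. With UMI counts CTSC and SOX4 were not settled (-1.05 and -0.87). UGDH-AS1, an antisense transcript with UMI counts that were not whole, stood at 154 CPM at 600 min and 199 CPM at 720 min, against 575 CPM at 0 min, with a mean log2 ratio of -0.37 to the 60 min library.

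Of 22 sterol synthesis genes 3 were settled lower (13.6%, where 2.45% of all genes were) and 0 higher. Below the unlit level at both times were 18, as were 39.9% of all genes. The median of the 22 was -0.84 at 600 min and -0.71 at 720 min. INSIG1, an SREBP target that holds SREBP in the ER, stood at 7.92 CPM at 600 min and 5.55 CPM at 720 min, against 30.1 CPM at 0 min. LSS, lanosterol synthase, stood at 21.5 CPM at 600 min and 19.2 CPM at 720 min, against 43.3 CPM at 0 min. SCD, which desaturates fatty acids, was the settled lower member of the 14 fatty acid genes: 96.2 CPM at 600 min and 90.2 CPM at 720 min, against 216 CPM at 0 min. That is 7.14% of the list, from 1 gene, where 2.45% of all genes were settled lower. The letters TCACNCCAC of a sterol regulatory element were found in 1 of 17 sterol promoters, against 0.854% of all, and in 0 of the 2 settled members with a promoter sequence. Against the 60 min library LSS and SCD were no longer past 2-fold, at mean log2 ratios of -0.22 and -0.63. With UMI counts LSS and SCD were not settled, at -1.05 and -1.03, and 2 sterol genes and 0 fatty acid genes were settled lower.

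Of 33 DNA replication genes, 6 were settled lower (CCNE2, GINS2, LIG1, MCM3, MCM4 and POLD1) and none was settled higher. That is 18.2% settled lower, where 2.45% of all genes were. Below the unlit level at both times were 30, as were 39.9% of all genes. The median of the 33 was -0.66 at 600 min and -0.64 at 720 min. With UMI counts 3 were settled lower. Against the 60 min library 5 were, with GINS2 and LIG1 no longer among them, at mean log2 ratios of -0.90 and -0.90. MCM3 and MCM4, subunits of the replicative helicase, stood lower: MCM3 at 67.8 and 63.0 CPM late, against 152 CPM at 0 min, and MCM4 at 53.8 and 54.0 CPM late, against 128 CPM at 0 min. GINS2, of the complex that joins the helicase, stood at 55.4 CPM at 600 min and 63.7 CPM at 720 min, against 136 CPM at 0 min, and LIG1, the replicative ligase, at 19.3 CPM at 600 min and 20.5 CPM at 720 min, against 50.04 CPM at 0 min. Of 32 mitosis genes 24 were below the unlit level at both times and 1, the kinesin KIF20A, was settled lower (55.8 CPM at 600 min and 58.7 CPM at 720 min, against 127 CPM at 0 min). That is 3.1% of the list, near the 2.45% of all genes settled lower. The letters TTTNGCGC of an E2F site were found in 8 of 29 replication promoters (27.6%), against 2.55% of all, and in 0 of the 4 settled members with a promoter sequence.

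Adhesion genes of the cadherin superfamily and the semaphorins came to 81 compared: 71 lay below the unlit level at both times, where 39.9% of all genes did, and 7 were settled lower (8.64%, where 2.45% of all genes were), with 1 settled higher, SEMA7A (31 transcripts at 600 min and 26 at 720 min, against 11 at 0 min). PCDH7, a protocadherin, stood at 16.4 CPM at 600 min and 14.5 CPM at 720 min, against 83.4 CPM at 0 min. Its relatives PCDH17 and PCDHB13 had 1.72 and 1.85 CPM late, against 8.36 CPM at 0 min (PCDH17) and 4.24 and 3.17 CPM late, against 11.2 CPM at 0 min (PCDHB13). CDH11, a mesenchymal cadherin, stood at 4.01 CPM at 600 min and 4.89 CPM at 720 min, against 17.8 CPM at 0 min. In all 4 the late levels were under 0.5 of the unlit one, as the rule for settled genes requires. The median of the 81 genes differed between the late times, at -1.07 at 600 min and -0.63 at 720 min. Of 36 collagen and matrix genes 28 were below the unlit level at both times, and LOXL1, a lysyl oxidase, was settled lower (44.0 CPM at 600 min and 41.3 CPM at 720 min, against 91.7 CPM at 0 min). The settled share, 2.78%, was near the 2.45% of all genes. Single members of 4 further lists were settled lower, from 3.45% of the list (cytoskeleton) to 12.5% (zinc), where 2.45% of all genes were. PDGFRB, 1 of 26 growth factor and kinase receptors, stood at 11.7 CPM at 600 min and 11.8 CPM at 720 min, against 27.0 CPM at 0 min. MYH10, a non-muscle myosin among 29 cytoskeletal genes, stood at 53.1 CPM at 600 min and 45.7 CPM at 720 min, against 107 CPM at 0 min. HSPA1A, an inducible HSP70 with a near-identical copy and 1 of 19 heat shock genes, stood at 22.7 CPM at 600 min and 27.3 CPM at 720 min, against 61.9 CPM at 0 min. Of the 19, 15 were below the unlit level at both times, where 39.9% of all genes were, with medians of -0.57 and -0.41. SLC39A4, a zinc importer among 8 metallothionein and zinc genes, had 8 transcripts at 600 min and 7 at 720 min, against 22 at 0 min. LOXL1, KIF20A, MYH10, HSPA1A and SLC39A4 were not settled against the 60 min library. Of 16 hypoxia targets HK2 and VEGFA were settled higher, and EGLN3, an oxygen sensor, lower (3.67 CPM at 600 min and 3.43 CPM at 720 min, against 17.5 CPM at 0 min). That is 12.5% higher and 6.25% lower, where 3.45% and 2.45% of all genes were. Among endothelial and fibroblast markers, 6 of 6 compared were below the unlit level at both times, where 39.9% of all genes were. The list of 12 had 265 CPM in sum at 600 min and 244 CPM at 720 min, against 429 CPM at 0 min.

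The late state was reached by different routes. At 240 min 251 of the 448 settled higher genes (56.0%) were already at least 2-fold higher, where 9.90% of all genes were. Of the 318 settled lower genes 143 (45.0%) were already at least 2-fold lower, where 7.07% of all genes were. These ratios share the unlit library with the choice of the genes, so the shares are a description. A further 190 higher and 165 lower genes were under 2-fold at 60, 120 and 240 min alike, and 52 higher and 11 lower genes were past it at all 3. In 113 of the higher genes the ratio at 240 min exceeded the late mean. IL6 is one, with levels at 0, 60, 120, 240, 600 and 720 min of 6.12, 41.8, 103, 272, 67.2 and 55.7 CPM. CHAC1 and DDIT3 were near their late level by 240 min, at 430.4 and 96.5 CPM.

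Late arrivals were of other kinds. At the same 6 times GDF15 had 329, 411, 283, 280.1, 891 and 1029 CPM. DNAJB9 and WARS were within 0.4 of the unlit level on the log2 scale up to 240 min, and MAP2 was below it, at 8.16 CPM at 240 min. AKR1C1 and SEMA7A had been at least 2-fold lower at 240 min before they stood higher late. In the other direction 9 settled lower genes had been at least 2-fold higher at 240 min, CCL2 and CEBPD among them. Over the 6 times CCL2 had 89.9, 159, 296, 383, 27.8 and 22.9 CPM, and FOS had 4.36, 38.0, 46.5, 18.3, 1.61 and 1.32 CPM. TMEM100 and MGP stood lower at each time from 60 min on.

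**Figure D4:**
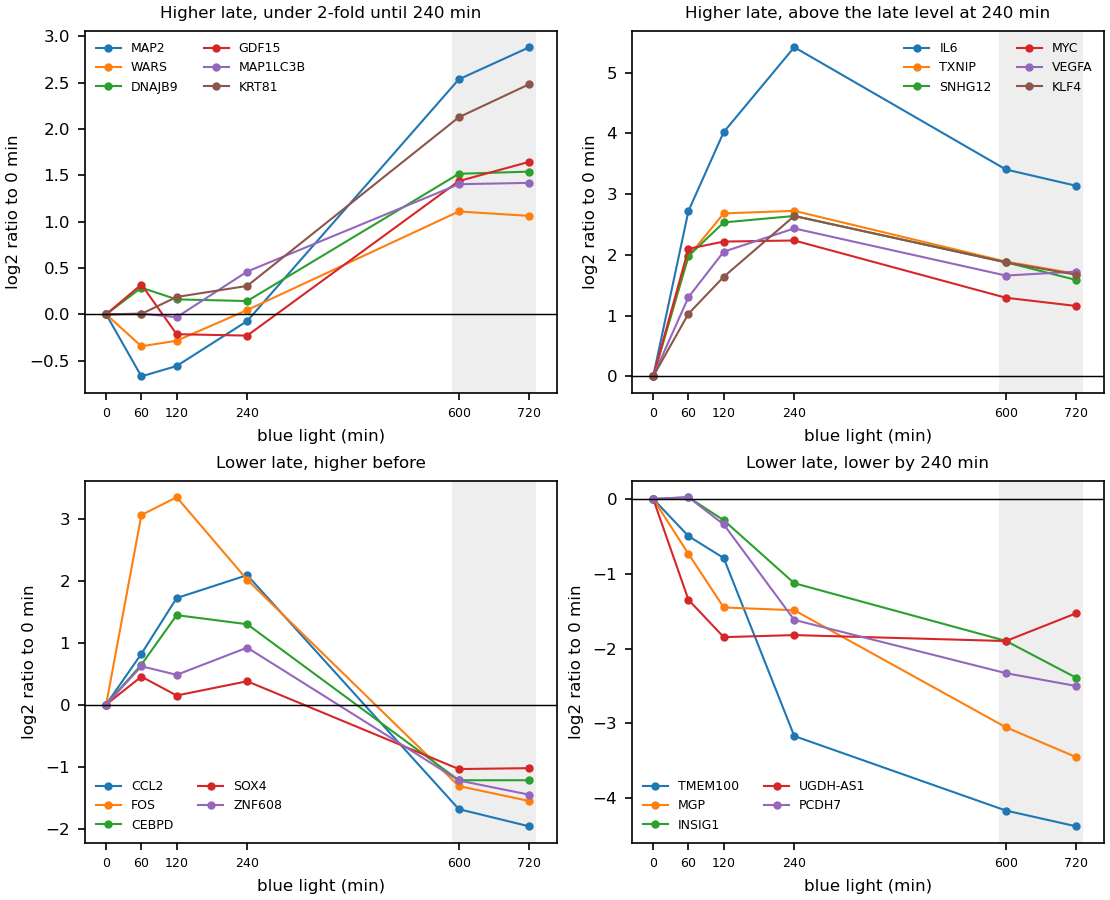
Log2 ratio to 0 min (vertical) against minutes of blue light (horizontal) for 22 settled genes by the route they took, 1 library per time, with the late times shaded and the 480 min library left out. IL6 had a log2 ratio of 5.42 at 240 min and 3.41 and 3.14 late, while GDF15 had -0.23 at 240 min and 1.44 and 1.65 late.

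The rule turned on small margins for a few genes. Just inside the 2-fold line were NPL (log2 ratios of 1.003 and 1.0007) and CNTNAP4 (log2 ratios of 1.16 and 1.003) on the higher side and NTN1 (log2 ratios of -1.26 and -1.001) and PXN-AS1 (log2 ratios of -1.40 and -1.0007) on the lower. Just outside were MFHAS1 (log2 ratios of 0.9999 and 1.06), MAP3K10 (log2 ratios of 0.9998 and 1.30), ZNF423 (log2 ratios of -1.03 and -0.9994) and PAQR4 (log2 ratios of -0.995 and -1.04). A further 98 genes were at least 2-fold higher at both times with ratios over 0.5 apart, 57 of them larger at 600 min and 41 at 720 min. Another 88 were lower, 63 of them more so at 720 min. RGS1, which dampens G protein signals, was such a gene (25 transcripts at 600 min and 5 at 720 min, against 129 at 0 min), as was CCDC147 (97 transcripts at 600 min and 27 at 720 min, against 3 at 0 min).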

How the data were processed

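Per the file headers and the labels, the authors deposited, for each of the 7 libraries, tables of reads, UMIs and transcripts per gene with 96 barcode columns. Only the column of barcode 4 was read, after the primer number in the labels, and the other 95 were not used. The transcript tables hold estimated counts (UMI counts corrected by the authors for collisions among 4096 UMIs), and they were rounded to whole numbers here. The UMI and read counts the authors deposited served as alternatives. The submitters' processing notes name BWA and hg19, with no version, annotation or counting program. The 480 min table stops part way through the alphabet and was not used. ERCC spike-in RNA was left out.

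Scaling was TMM over the 6 complete libraries (edgeR 4.0.16 in R 4.3.3, normalization only). CPM is the count scaled to 1e+06 per effective library. Log2 ratios carry a prior count of 2, and intervals come from the counts without it (scipy 1.17.1). They take collision-corrected counts as plain counts, so for abundant genes they cover only part of the counting error. Genes with at least 20 counts in any of the 3 libraries were compared. With 1 library per time no test was run. For a fold, 0 counts were replaced by a floor of 3 counts per library.

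The comparison and the 45 gene lists (998 symbols) and 8 name families were chosen with earlier results of these data known. The 186 named genes follow a rule: in each direction the 12 settled genes with the largest mean log2 ratio among those with 50 or more counts in both late libraries (higher) or at 0 min (lower), the 12 with the largest difference in CPM, up to 4 settled members per list, family and direction, every ISR factor and effector, and genes at the edge of the rule or of unequal or opposite ratios. Other gene symbols are given only as members of a count, and some genes the rule takes are not reported here. Promoters are from RefSeq (GRCh38.p14) and were matched by symbol, since the counts were made on another build. Calculations were tested on simulated data.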

Additional observations from a re-analysis of the deposited data

Results flagged for a closer look

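ANKRD36BP1, a pseudogene of an ankyrin repeat gene, was the 1 gene at least 2-fold from the unlit cells in opposite directions at the late times. It had 7 transcripts at 600 min and 38 at 720 min, against 20 at 0 min, with log2 ratios of -1.31 (-3.04 to -0.25) and 1.02 (0.27 to 1.95), a difference of 2.33 on the log2 scale. At 60, 120 and 240 min its level was 5.73, 0.128 and 0.110 CPM, and its UMI counts were not whole. The difference rests on 1 library per time and was not tested.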

How the results depend on the processing

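No paired analysis was possible because each time is 1 library. The counts of genes settled higher (448) and lower (318) stayed within 1.5 times under UMI or read counts, other scaling, another prior count, 50 or more counts or no minimum, ratios within 1, intervals clear of 0, thinning to the smallest library and the 60 min baseline, between 372 and 559 higher and between 255 and 455 lower. No scaling moved the median log2 ratio of all genes by over 0.1. A fold of 1.5 gave 1123 higher and 982 lower, and a fold of 3 gave 154 and 67. The 600 min library alone gave 858 and 667, and the 720 min library alone 730 and 660. Ratios within 0.25 left 202 lower genes. The 1525 genes past the fold either way at 600 min became 3905 at 1.5-fold and 468 at 3-fold, and the 1390 at 720 min became 3587, 439 and, with no minimum count, 2263. Lists holding at least 2 settled members in a direction, 29 in all, became 46 and 16. The 394 settled genes already past 2-fold the same way at 240 min became 246 with ratios within 0.25, 1270 at 1.5-fold, 94 at 3-fold, 179 with the 60 min baseline and 805 with the 600 min library alone. No value could be had for them with scaling over the 3 libraries, where 240 min has no factor. Of 1860 mean log2 ratios of named genes under these alternatives, 15 changed sign. Of these 7 were of genes past 2-fold at both times, each with the 60 min baseline: DUSP8 (-0.39), SPRY2 (-0.48), MYC (-0.87), SNHG12 (-0.25), ZNF77 (-0.14), TXNIP (-0.19) and CNFN (0.25). The other 8 were of genes not past it in 1 direction at both times, with CREBRF (-0.34), PPP1R15B (-0.21) and EIF2AK2 (0.17) under the same baseline. The cause was not tested. Depth limits low genes most: 58 settled higher genes had under 10 counts at 0 min.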

Other observations

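Families named by their symbols are given beside the 3.45% of all genes settled higher and the 2.45% settled lower. Of 415 zinc finger genes with ZNF names, 7 were settled higher (1.69%) and 1 lower (0.241%), and against the 60 min library 2 were settled higher and 26 lower. ZNF469 stood at 8.14 CPM at 600 min and 8.72 CPM at 720 min, against 3.06 CPM at 0 min, with a mean log2 ratio of 1.16 to the 60 min library, while ZNF77 had log2 ratios of 1.63 and 1.29 to 0 min and -0.14 to 60 min. ZNF608 was the settled lower one: 9.18 CPM at 600 min and 7.79 CPM at 720 min, against 21.8 CPM at 0 min. Of 206 solute carriers with SLC names, 9 were settled higher (4.37%) and 6 lower (2.91%), and against the 60 min library 6 and 2. Outside amino acid supply these included SLC4A7, a sodium bicarbonate cotransporter (93.0 CPM at 600 min and 85.3 CPM at 720 min, against 26.8 CPM at 0 min, with a mean log2 ratio of 0.32 to the 60 min library), and SLC22A15 (30.3 CPM at 600 min and 25.4 CPM at 720 min, against 3.77 CPM at 0 min). On the lower side was SLC29A4, a monoamine transporter (10.8 CPM at 600 min and 14.4 CPM at 720 min, against 40.3 CPM at 0 min).

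Of 172 membrane protein genes with TMEM names, 2 were settled higher (1.16%) and 9 lower (5.23%), and against the 60 min library 2 and 2. TMEM71 had 44 transcripts at 600 min and 45 at 720 min, against 14 at 0 min, and TMEM256 had 70 transcripts at 600 min and 78 at 720 min, against 243 at 0 min. Of 327 transcripts with LOC or LINC names, 23 were settled higher (7.03%) and 8 lower (2.45%), and against the 60 min library 18 and 2. LOC643723 had 62 transcripts at 600 min and 39 at 720 min, against 2 at 0 min, and LOC100130093 had 44 transcripts at 600 min and 31 at 720 min, against 189 at 0 min. The 4 settled histone genes were the copy pairs HIST2H4A and HIST2H4B and HIST2H2AA3 and HIST2H2AA4, each pair with the same value in every library, so they stand for 2 measurements.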
